A study of Mus musculus with 4 samples.

Results

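The 10 genes described here encode the CREB group of transcription factors, the CRTC coactivators that bind them and the salt-inducible kinases that hold those coactivators back. They are Crem, Creb1 and Atf1, the more distant relative Creb3l2, Crtc1, Crtc2, Crtc3, Sik1, Sik2 and Sik3, 10 of 30142 genes with a single symbol on the array. Each was measured by 1 transcript cluster, the array's probe set for a gene. Cyclic AMP, the second messenger raised by prostaglandin E2 through its Gs-coupled receptors, activates protein kinase A. That kinase phosphorylates CREB, CREM and ATF1, and it also phosphorylates the salt-inducible kinases. The phosphorylated kinases no longer keep the CRTC coactivators in the cytoplasm, so CRTC proteins enter the nucleus and strengthen transcription from cyclic AMP response elements. Crem and Sik1 are themselves targets of this pathway, and their products, the repressor ICER and the kinase SIK1, damp it again. In macrophages and dendritic cells the salt-inducible kinases are known to restrain interleukin-10 through CRTC3.

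The cells were lineage-negative, c-Kit-positive (LK) stem and progenitor cells of the blood, taken from NOD mice, an inbred strain that develops autoimmune diabetes. They were cultured for 4 h at 37 °C in StemSpan medium, either with the vehicle DMSO (2 arrays) or with the pair of drugs labelled combo, 10 µM dmPGE2 together with 10 µM dexamethasone (2 arrays). Dimethyl prostaglandin E2 (dmPGE2) is a long-lived prostaglandin E2 analog and dexamethasone a synthetic glucocorticoid. No group held either drug alone, so the share of each cannot be told apart, and the labels give no age or sex of the mice and do not say how many animals gave each sample. The series calls the duplicates biological, and the p-values measure only the spread between these samples.

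Values are log2 RMA signals of 4 Affymetrix arrays. Each is given per array, then as mean ± SD (n = 2), and a difference is combo minus vehicle. The test was limma's moderated test over all 65956 features, with Benjamini-Hochberg adjustment over all of them and a threshold of 0.05. Single background probe sets reached 5.55, and all 10 genes lay above that on every array. The 7 markers of the labelled progenitors were above it too, from Mpo at 17.63 to 18.13 and Kit at 9.62 to 10.51 down to Flt3 at 5.92 to 7.25, and Myb was lower in combo by 0.51 at an unadjusted limma p of 0.030. All 5 measured T cell markers stayed within the background range. The log2 signals of 7 mature neutrophil markers summed to 73.6 and 57.8 on vehicle arrays 1 and 2 and to 78.3 and 67.3 on combo arrays 1 and 2. Of these, Cxcr2 and Mmp8 were higher in combo at an unadjusted p under 0.05, Camp and Ltf were higher on the arrays numbered 1, and Ly6g stayed within the background range. Of 7 macrophage markers, C1qb was higher and Adgre1, Csf1r and Mrc1 were lower at that limit, with C1qa and C1qc within the background range, and the list summed to 48.2 and 51.2 with vehicle and 46.5 and 48.3 with combo. Of 4 megakaryocyte and platelet markers, which summed to 31.6 and 32.3 with vehicle and 36.3 and 38.2 with combo, Ppbp alone was higher at that limit, at 4.95 and 4.33 against 9.80 and 10.52. Of 5 mast cell and basophil markers, Gzmb was higher and Ms4a2 lower, and the list summed to 48.0 and 49.5 against 48.8 and 49.1. The 3 measured late erythroid and 4 measured B cell markers held none at that limit. The part of these markers in the differences below was not tested. In such bulk samples, fewer cells that express a gene and less RNA per cell cannot be told apart.

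Of the 10 genes, 0 passed limma's test adjusted over all features, where 0.00303% of features passed in either direction, and 0.00916% of the genes at least as bright as the dimmest of the 10. At an unadjusted p under 0.05, Crem, Crtc3 and Sik1 were higher in combo, 3 of 10, against a background of 3.14% of all features, and Crtc1 was lower, 1 of 10, against 2.44%. Among the 10918 genes of that brightness, the background was 3.31% higher and 5.29% lower. The combo arrays both lay above both vehicle arrays for 4 genes (Crem, Crtc3, Sik1 and Creb3l2), where 20.4% of all features and 11.9% of the genes of that brightness did. They both lay below for Crtc1 and Atf1, 2 of 10 genes, near the background of 13.9% and 23.2%. The median difference of the 10 genes was 0.21, against 0.02 for all features and -0.06 for the genes of that brightness. Centring each array on its median moved the split of all features at an unadjusted p under 0.05 from 56.2% higher to 40.4% higher.

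**Figure D1:**
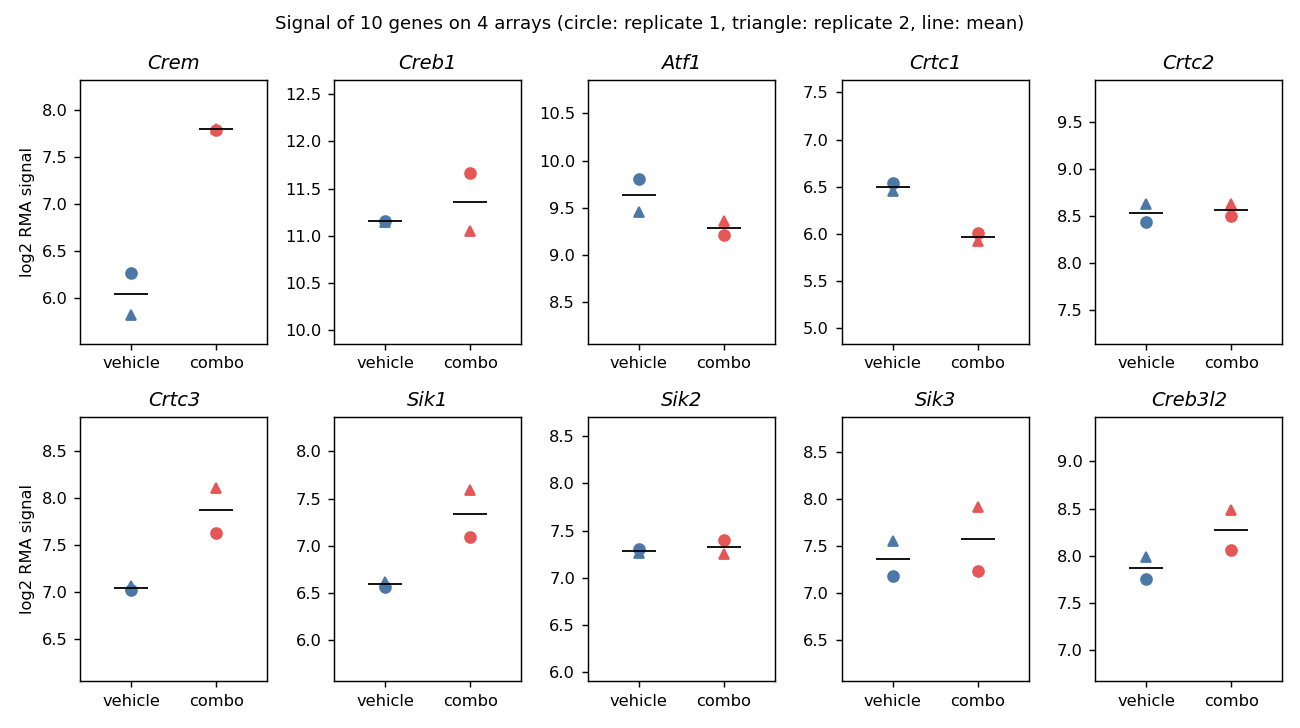
Log2 RMA signal (vertical axis, the same span of log2 units in each panel but a different level) of the 10 genes on the vehicle arrays (blue) and the combo arrays (red), with circles for replicate 1, triangles for replicate 2 and a line at the mean of each group. The combo arrays of Crem stand at 7.79 and 7.80, apart from 6.26 and 5.82 with vehicle, while Crtc2, Sik2 and Sik3 overlap between groups.

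Crem, which encodes both activating CREM proteins and, from an internal promoter, the short repressor ICER, had the largest difference of the 10. It was at 6.26 and 5.82 on the vehicle arrays and at 7.79 and 7.80 on the combo arrays (transcript cluster TC1800000924.mm.1). The groups were separated by 1.53 at their nearest arrays, and the combo arrays were alike to within 0.013 while the vehicle arrays differed by 0.44. The means were 6.04 ± 0.31 and 7.79 ± 0.0089, a difference of 1.75 (SE 0.19, limma's 95% interval 1.25 to 2.26), or 3.37-fold. The unadjusted p was 0.000401 and limma's adjusted p over all features 0.29, which misses the threshold. Only 77 of the 30142 genes had a larger upward difference. Leaving out any 1 array left the difference between 1.53 and 1.97. The signal of a transcript cluster sums over the isoforms it covers, so ICER and full-length CREM were not told apart here.

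The other factors of this group gave smaller differences, none past an unadjusted p of 0.05. Creb1, the prototype of the family and constitutively expressed in most cells, was at 11.16 and 11.14 with vehicle and at 11.67 and 11.05 with combo. Its combo arrays enclosed the vehicle arrays, and the difference of 0.21 (95% interval -0.42 to 0.84, limma's adjusted p = 0.97) rested on combo 1, since it was -0.10 without that array. Atf1, which dimerises with CREB1 and CREM, was at 9.81 and 9.45 with vehicle and at 9.21 and 9.36 with combo. The groups did not overlap, but were only 0.090 apart, less than the 0.35 between the vehicle arrays, and the difference of -0.34 had an interval of -0.81 to 0.13 (limma's adjusted p = 0.93). It was -0.17 without vehicle 1. The annotation of this transcript cluster also lists the pseudogene Atf1-ps, whose RNA could share its probes. Creb3l2, a membrane-bound factor of the endoplasmic reticulum that is released by cleavage rather than by phosphorylation through protein kinase A, was at 7.75 and 7.99 with vehicle and at 8.06 and 8.49 with combo. Its combo arrays were both higher, by as little as 0.067, and the difference was 0.40 (interval -0.14 to 0.94, limma's adjusted p = 0.93). It was 0.19 without combo 2 and 0.62 without combo 1.

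The CRTC coactivators, which bind the basic leucine zipper of CREB, gave differences of both signs. Crtc3 was at 7.03 and 7.07 on the vehicle arrays and at 7.63 and 8.11 on the combo arrays. Both combo arrays were higher than both vehicle arrays, and the vehicle arrays were nearly equal while combo 2 stood 0.48 above combo 1. The means of 7.05 ± 0.029 and 7.87 ± 0.34 differ by 0.82 (SE 0.20, interval 0.29 to 1.35), or 1.77-fold, with an unadjusted limma p of 0.011 and an adjusted p of 0.75. Crtc1, the form best known from neurons, was lower in combo, with 6.54 and 6.46 against 6.01 and 5.93. Its arrays lay within 0.085 of each other in both groups. The means of 6.50 ± 0.058 and 5.97 ± 0.060 differ by -0.53 (SE 0.13, interval -0.87 to -0.19), 1.44-fold lower in combo, with an unadjusted limma p of 0.012 and an adjusted p of 0.75. Crtc2, the form known for glucose production in liver, was at 8.44 and 8.63 against 8.50 and 8.63. The groups overlapped, with a difference of 0.034 and an interval of -0.35 to 0.42, and the sign turned to -0.019 when arrays were centred on their medians.

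Among the salt-inducible kinases, Sik1 alone had an unadjusted p under 0.05. Sik1, the form whose own transcription responds to cyclic AMP, was at 6.56 and 6.61 with vehicle and at 7.09 and 7.59 with combo. As for Crtc3, the vehicle arrays were nearly equal, both combo arrays were higher, and combo 2 stood 0.50 above combo 1. The means of 6.59 ± 0.035 and 7.34 ± 0.35 differ by 0.75 (SE 0.21, interval 0.21 to 1.30), or 1.68-fold, with an unadjusted limma p of 0.017 and an adjusted p of 0.80. Sik2 was at 7.31 and 7.26 against 7.40 and 7.25, overlapping, with a difference of 0.040 (interval -0.32 to 0.40) that turned to -0.013 when arrays were centred on their medians. Sik3, a kinase with broad expression, was at 7.18 and 7.55 against 7.24 and 7.91. Its arrays differed by 0.37 within vehicle and 0.67 within combo, more than the group difference of 0.21 (interval -0.54 to 0.96). The intervals of Sik2 and Sik3 exclude neither small changes nor, for Sik3, a change as large as that of Sik1.

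These unadjusted calls rested on few arrays. Without vehicle 1, p was 0.051 for Crtc3, 0.071 for Sik1 and 0.063 for Crtc1. Without vehicle 2 it was 0.060 for Sik1, and without combo 2 it was 0.052 for Crtc1. Crem stayed under 0.05 in all 4 of these fits, in which limma takes the lone array of a group to vary like the others. The direction of all 4 genes stayed the same in each, with differences of 0.58 to 1.06 for Crtc3, 0.50 to 1.00 for Sik1 and -0.57 to -0.49 for Crtc1.

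**Figure D2:**
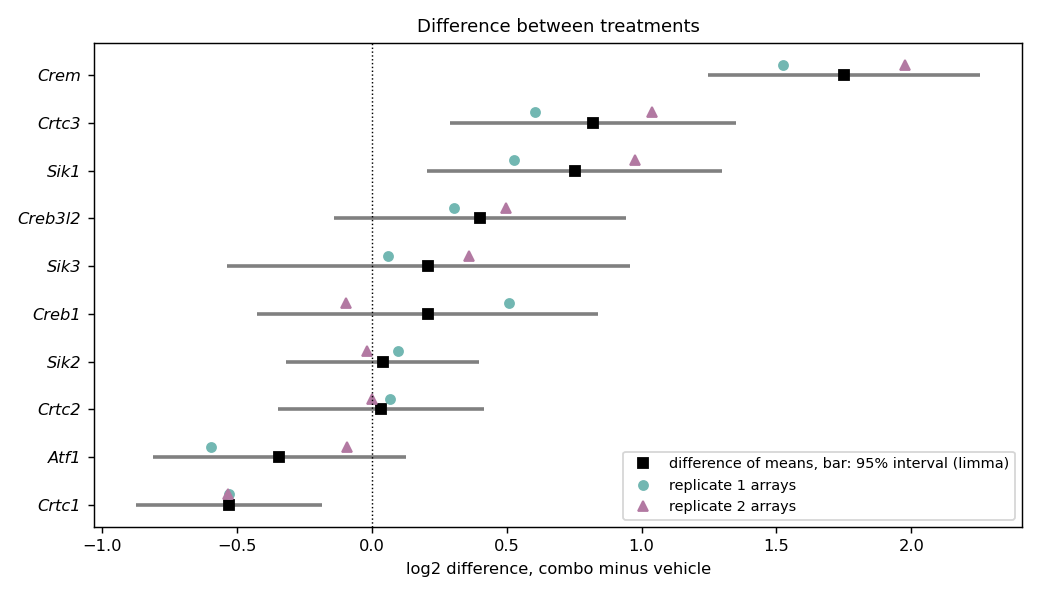
Log2 difference, combo minus vehicle (horizontal axis), of each of the 10 genes, with squares for the difference of means, bars for limma's 95% interval, circles for the arrays numbered 1 and triangles for those numbered 2. The intervals of Crem, Crtc3, Sik1 and Crtc1 lie on one side of 0 and those of the other 6 genes include it.

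Within each subfamily the log2 signal of a gene minus that of another was computed per array. Combo and vehicle arrays were then compared in this quantity by an exact test over the 4 arrays. Its combo minus vehicle difference was 2.09 for Crem against Atf1 and 1.54 for Crem against Creb1. It was 0.71 for Sik1 against Sik2 and 0.54 for Sik1 against Sik3. Crtc1 against Crtc3 gave -1.35, which was -1.13 for replicate 1 and -1.57 for replicate 2. The groups did not overlap for 7 of the 9 pairs, the exceptions being Creb1 against Atf1 and Sik2 against Sik3. Each of these 7 holds Crem, Crtc1, Crtc3 or Sik1, so the count is not separate from their differences given above. The pairs share genes and are not independent, and the share over all pairs of genes was not computed. Of all single features, 20.4% did not overlap with combo higher and 13.9% with combo lower, which is no background for pairs. With 2 arrays against 2 a two-sided exact permutation test cannot go below 0.33, which these 7 pairs reached, or 0.43 adjusted over the 9 pairs. This test could not have passed at that size, whatever the values. The pooled SD between arrays of a group was 0.083 for Crem against Atf1, 0.29 for Crtc1 against Crtc3 and 0.33 for Sik1 against Sik2.

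Genes with the most similar pattern were sought among 9918 protein-coding genes of at least median signal, the 10 genes left out, by the Euclidean distance between the 4 log2 values after subtraction of each gene's mean. The 5 nearest to Crem were Ptgs2 (distance 0.17), Txnip, Slfn1, Slfn2 and Ch25h (distance 0.28). Ptgs2 encodes cyclooxygenase-2, which makes the precursor of prostaglandin E2, Txnip an inhibitor of thioredoxin, and Ch25h cholesterol 25-hydroxylase. Like Crem, each was lower on vehicle 2 than on vehicle 1, and their differences lay between 1.70 for Ptgs2 and 1.93 for Slfn2. The genes were chosen by these same values, so this likeness largely follows from the choice. The vehicle arrays of Ptgs2, Slfn1 and Ch25h lay within the background range. The 5 candidates nearest to Sik1 were Efna5, Slc15a3, Stk40, Mospd1 and Abca1, at distances of 0.037 to 0.083. Efna5 and Abca1 lay within the background range on both vehicle arrays and combo 1. Crtc3, not a candidate, lay at 0.072 from Sik1, closer than Abca1 and than any other of the 10 genes, of which Creb3l2 came next at 0.38. Crem itself was 1.11 from Sik1. It differed from Sik1 and Crtc3 in its larger step, its fall of 0.44 from vehicle 1 to vehicle 2 and its nearly equal combo arrays. These distances describe 4 arrays that all genes share.

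**Figure D3:**
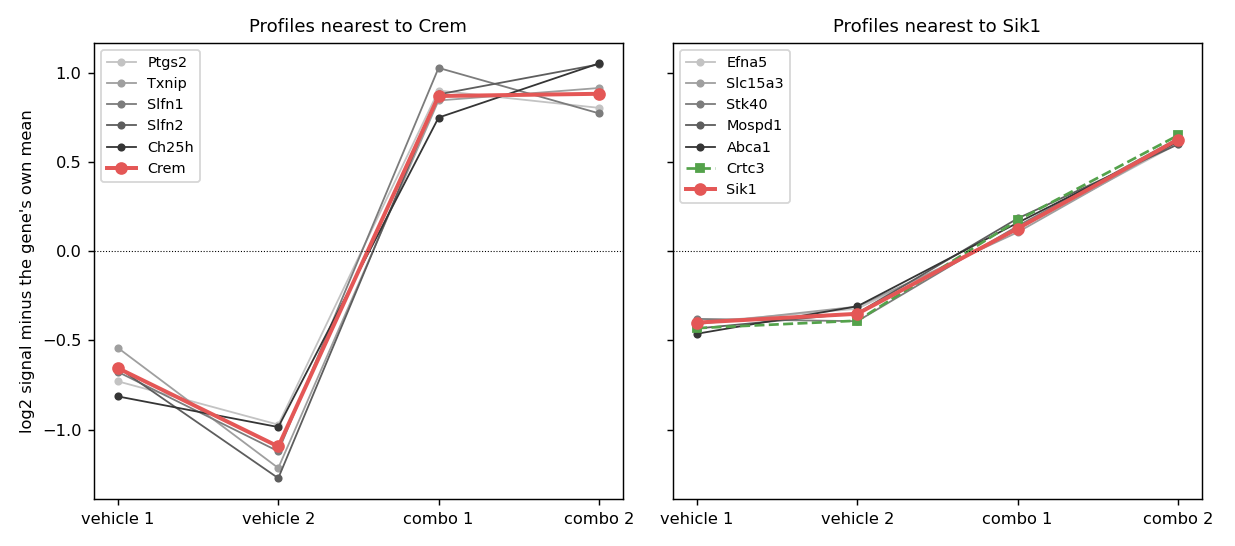
Log2 signal minus each gene's own mean over the 4 arrays (vertical axis) on the 4 arrays (horizontal axis), for Crem (red, left) and Sik1 (red, right) with the 5 nearest genes outside the 10 in grey and Crtc3 in green. Crem is level between combo 1 and combo 2, whereas Sik1 and Crtc3 are higher on combo 2 by 0.50 and 0.48.

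Genes around this pathway were read from 5 lists, of which 0 genes passed limma's adjusted test. Known CREB targets, with the 10 genes left out, had a median difference of 0.38 over 19 measured genes. At an unadjusted p under 0.05, 8 of the 19 were higher in combo (Ptgs2, Per1, Dusp1, Irs2, Fos, Pde4b, Nr4a1 and Nr4a3) and 0 were lower, against the background of 3.14% and 2.44%. This list was chosen with earlier results of these data known, so the count is not independent evidence. Dusp1, a phosphatase of MAP kinases, was at 7.91 and 7.50 against 9.61 and 10.00, a difference of 2.10 (SE 0.22, limma's adjusted p = 0.28). The clock gene Per1 was at 5.53 and 5.75 against 7.52 and 7.90, and Ptgs2 at 5.30 and 5.06 against 6.93 and 6.84. Dusp1 and Per1 are also known glucocorticoid targets, and the other genes of the list were not checked for this. Both groups of Nr4a1 and Nr4a3 lay within the background range, as did the vehicle arrays of Ptgs2, Fos and Pde4b. Il10, the cytokine gene read out in studies of SIK inhibition, differed by -0.049 within the background range.

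The steps above CREB, from receptor to kinase, had a median of -0.09 over 21 measured genes, with 0 higher and 2 lower at an unadjusted p under 0.05, where 3.14% of all features were higher and 2.44% lower (5.29% of the genes at least as bright as the dimmest of the 10). Ptger4, the Gs-coupled prostaglandin E2 receptor EP4, was at 5.57 and 6.04 with vehicle and at 4.92 and 4.64 with combo, the latter within the background range. Adcy6, an adenylyl cyclase, was at 7.02 ± 0.025 (SD, n = 2) with vehicle and at 6.44 and 6.45 on the combo arrays, a difference of -0.58 (SE 0.12) with an unadjusted limma p of 0.0071 and an adjusted p of 0.66. As for Crtc1, its arrays were nearly equal within each group. Prkar1a, a regulatory subunit of protein kinase A, differed by 0.30 and did not pass.

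The remaining lists had medians between -0.14 and -0.0029, with genes on both sides of 0. Among 15 further CREB3 and ATF factors and coactivators, 0 passed the unadjusted limit in either direction, and the median was -0.0029. Of all features, 3.14% were higher and 2.44% lower at that limit. The acetyltransferases CBP (Crebbp) and p300 (Ep300), the partners of phosphorylated CREB, differed by 0.032 and -0.012. The 3 genes of that list with the smallest p were Creb3, Crebzf and Atf6b, with differences of 0.63, -0.35 and -0.15. Among 22 regulators and partners of the salt-inducible kinases and CRTC proteins, 0 passed in either direction, against the same shares. Their median was -0.14, and 17 of 22 lay below 0. The genes at least as bright as the dimmest of the 10 had a median of -0.06, and their share below 0 was not computed. Mef2c, a factor freed when class IIa histone deacetylases leave the nucleus, differed by -0.58, the 14-3-3 gene Ywhag by -0.36, and Hdac7, one of those deacetylases, by -0.47. Hdac7 lay within the background range on vehicle 2 and on both combo arrays. Stk11, which encodes LKB1, the kinase that activates the salt-inducible kinases, was at 10.59 and 10.57 against 10.32 and 10.47.

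Of 10 measured kinases related to AMP-activated kinase, which LKB1 also activates, 0 were higher and 1 was lower at an unadjusted p under 0.05, against the same shares of 3.14% and 2.44% of all features. This was Prkaa2, a catalytic subunit of AMP-activated kinase, at 5.77 and 6.24 against 5.07 and 5.09, a difference of -0.92 with both combo arrays within the background range. Nuak2 differed by 0.54, with combo 2 at 7.35 and combo 1 at 6.60, and Nuak1 by -0.31 within the background range. The median of this list was -0.07.

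**Figure D4:**
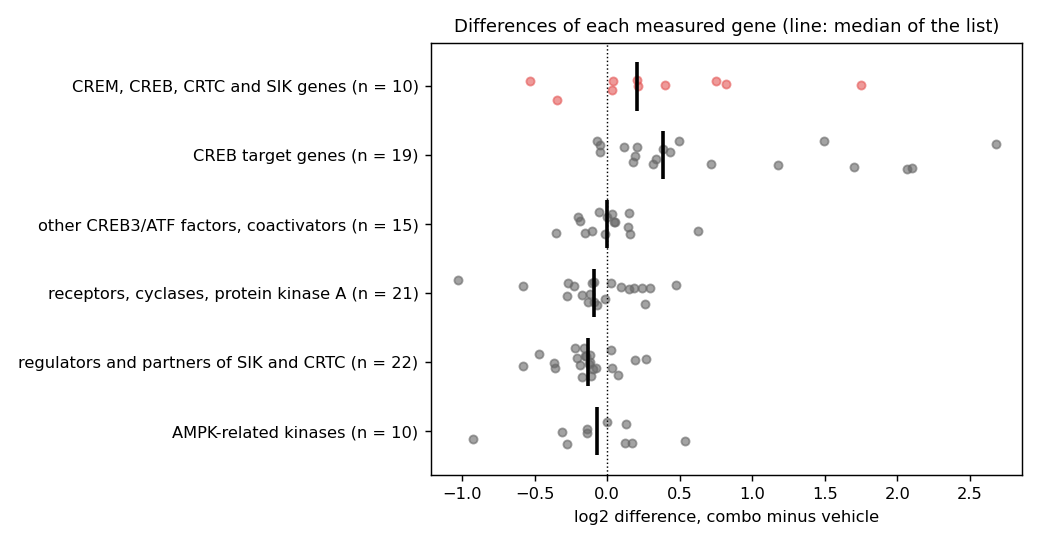
Log2 difference, combo minus vehicle (horizontal axis), of each measured gene in 6 lists, with the 10 genes in red, the other lists in grey and a line at the median of each list. The medians are 0.21 for the 10 genes and 0.38 for the CREB targets, and lie between -0.14 and -0.0029 for the other 4 lists.

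The sequences upstream of these genes were searched for the letters of the cyclic AMP response element, the full palindrome TGACGTCA and its half-site TGACG, on both strands (CGTCA is the half-site on the other strand, and each full element holds overlapping half-sites of both strands). RefSeq promoter windows of assembly GRCm38.p6, from 250 bases before to 50 after a gene's start, were matched for 7 of the 10 genes (not Crem, Crtc2 and Sik1). The full element was in 0 of the 7 windows and in 1.79% of all 32851 windows. A half-site was in 4 of the 7 (Atf1, Sik2, Sik3 and Creb3l2) and in 20.8% of all windows. Sik2 had none that lay wholly before the start. For the listed CREB targets, 14 of the 16 matched genes had a half-site in at least 1 window, a count per gene and not per window. That of Ptgs2 lay after the start. These 16 include Junb and Pde4d, which were not measured. Dusp1 and Btg2 had the full element. Dusp1 differed by 2.10 and Btg2 by -0.068, the latter with both group means within the background range. Irs2, with the largest difference of the list at 2.68, had no half-site. Below are the 250 bases before the start of Crtc3, whose combo arrays were higher and which holds no such letters, of Sik3, whose groups overlapped and which holds 3 half-sites, and of Dusp1, with the full element, each 5′ to 3′ on the gene's strand with the matches in capitals.
Crtc3: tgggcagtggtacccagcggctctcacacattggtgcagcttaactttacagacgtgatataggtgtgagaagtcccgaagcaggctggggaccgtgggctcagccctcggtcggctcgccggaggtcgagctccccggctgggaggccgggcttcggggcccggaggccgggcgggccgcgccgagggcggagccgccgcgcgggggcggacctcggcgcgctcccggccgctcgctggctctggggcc
Sik3: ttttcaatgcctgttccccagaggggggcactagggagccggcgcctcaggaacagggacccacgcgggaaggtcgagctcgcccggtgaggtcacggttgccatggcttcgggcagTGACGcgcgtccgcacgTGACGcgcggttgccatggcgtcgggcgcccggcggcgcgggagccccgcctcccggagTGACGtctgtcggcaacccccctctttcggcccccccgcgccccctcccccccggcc
Dusp1: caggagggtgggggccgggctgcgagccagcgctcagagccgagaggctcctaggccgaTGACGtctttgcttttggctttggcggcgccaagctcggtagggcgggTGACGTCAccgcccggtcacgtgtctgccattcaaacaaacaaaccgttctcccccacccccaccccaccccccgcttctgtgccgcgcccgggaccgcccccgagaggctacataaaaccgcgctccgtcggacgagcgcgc
They lie at chr7:80688878-80689127 (minus strand), chr9:46012570-46012819 (plus strand) and chr17:26508473-26508722 (minus strand). The half-sites of Sik3 begin 133, 116 and 57 bases before the start, and 1.03% of all windows hold 3 or more. The Dusp1 window has a half-site beginning 191 bases before the start and the full element beginning at 143. A match of letters is a description and not a binding site, and a window without a match says nothing of elements elsewhere.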

How the data were processed

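The 4 arrays measured total RNA of LK cells (2 vehicle, 2 combo), 10 ng per sample, purified (PicoPure) and biotin-labelled (WT Pico kit) as the labels' protocols state. The deposited log2 signals come from RMA in the Transcriptome Analysis Console, as the submitters' processing notes name them. Their versions and the genome build are not stated there. Low signals are compressed by RMA, which also forces arrays towards 1 distribution. Of 72688 rows, 6732 control rows were left out, which left 65956 features. Genes were named from the platform annotation where it gave 1 symbol, updated through RefSeq; for several features of a gene, that with the highest mean was used. limma 3.58.1 (R 4.3.3; lmFit, eBayes, two-sided, group as the only term) was fitted to all features and tested on simulated data. The residual degrees of freedom were 2. Other settings tried were a replicate block, other priors, a signal filter, renormalization, centring, control rows kept and each array left out. The members, lists and rules were chosen with earlier results of these data known. All 10 genes were named, with the 3 of each list with the smallest p and the 5 nearest to Crem and to Sik1; further list members were named after their values were seen. Precision is limited by the number of arrays, which have no read depth.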

Additional observations from a re-analysis of the deposited data

How the results depend on the processing

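With 2 arrays a group, the test could pass only large differences, and the adjusted p of Crem lay between 0.12 and 0.92 over the alternatives. Over all features, 2 passed limma's adjusted test. With the replicate number as a block there were 19, of which none was one of the 10 genes, and 0 passed with an intensity trend, with features at or above the median signal, after a second quantile normalization, with control rows kept, or without any 1 array, where 2178 to 4658 features in those fits had an unadjusted p under 0.05. The median difference of the 10 genes was 0.22 after a second quantile normalization, 0.16 after centring the arrays and 0.14 to 0.32 without 1 array. Without 1 array, 1 to 4 of the 10 genes were higher at an unadjusted p under 0.05 (2.18% to 4.24% of all features) and 0 to 1 lower (2.21% to 2.82%), while the groups did not overlap for 4 to 6 higher (34.0% to 40.1% of all features) and 2 to 4 lower (27.7% to 31.9%). The last of these counts is near its background, and so is the smallest count of higher genes without overlap, which came without vehicle 1. Crtc2 turned to -0.019 and Sik2 to -0.013 after centring. Without 1 array, Creb3l2 lay between 0.19 and 0.62, Atf1 between -0.52 and -0.17 and Creb1 between -0.10 and 0.52. In the same fits, Crtc2 lay between -0.061 and 0.13, Sik2 between -0.037 and 0.12 and Sik3 between -0.13 and 0.55. No label says that same-numbered arrays share animals or a day. The change from array 1 to array 2 correlated between the groups at 0.33 across all features, which are not independent replicates. With the replicate block the unadjusted p of Creb3l2 was 0.047, and the other 9 genes kept their side of 0.05. No member had a second probe set, so that alternative gave no value. On all 4 arrays, the alternatives run left Crem, Crtc3 and Sik1 higher and Crtc1 lower at an unadjusted p under 0.05.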
